A study of Mus musculus with 2 samples.

Results

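Reads of C2C12 cells, a mouse myoblast line, repeatedly used splice sites that the annotation does not hold. The 287 structures described here are transcript models of the class "not in catalog" (NNC), which contain at least 1 unannotated splice site, with 2 or more exons. They were selected on their read counts, at least 5 reads in each of the 2 libraries, after models of both libraries had been matched by chromosome, strand and exact chain of introns. They are 287 of 32719 distinct NNC structures, of which 3443 had reads in both libraries, and they lie in 254 annotated genes. The series holds 1 group of 2 biological replicates of this line. The labels name no genotype change, agent or differentiation state, and they trace the line to injured thigh muscle of C3H mice. Total RNA was read by long-read sequencing, which gave 791850 reads in replicate 1 and 735077 in replicate 2. NNC models took 3.43% of the reads of replicate 1 and 3.996% of replicate 2, and the 287 structures held 4969 and 5000 of those reads, or 0.628% and 0.680% of each library. All 6 muscle markers looked at were read in both libraries, from Mymk with 108 and 110 reads to Des with 881 and 1187. Of 6 markers of endothelial, blood and epithelial cells, 4 had no read and Cd68 (3 and 2 reads) and Pecam1 (0 and 1) had few. Because read counts chose the structures, counts and shares of the gene are descriptions with no test, and nothing was compared between conditions.

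Introns are cut out of a transcript at a donor, marked by the first 2 bases of the intron, and an acceptor, marked by its last 2, nearly always GT and AG. Many genes hold closely spaced donors or acceptors, and the choice between them adds or removes a few bases of the mRNA. A change by a multiple of 3 bases inside coding sequence keeps the reading frame of what follows, and any other change shifts it. Tandem acceptors of the form NAGNAG are a textbook case, since they include or omit 3 bases.

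The most frequent pattern was a donor moved 4 bases into the annotated intron. It is shown first in sequence, on mm10 and 5′ to 3′, because the same letters recur. Capitals mark the first 2 intron bases at the annotated donor and then at the unannotated donor. The 6 sites are those with the highest lower count whose letters could be read from annotated exons.
Fth1, chr19:9984319-9984343, plus strand: gatataaagGTaaGTagatcctagg
Rack1, chr11:48801826-48801850, plus strand: tctcacaacGCaaGTagctgctttg
Clic1, chr17:35055400-35055424, plus strand: atagtacagGTtgGTggtcaccgtg
Vim, chr2:13578500-13578524, plus strand: cacgatgaaGTaaGTgacaccaatt
Oaz1, chr10:80828788-80828812, plus strand: aggacagagGTtgGTattgcttggg
Rpl8, chr15:76905028-76905052, plus strand: ccgttgttgGTgaGTgcgggagggc
In 5 of these windows the intron begins GTNNGT, so that the unannotated donor is the GT at intron bases 5 and 6. The annotated donor of Rack1, which encodes a ribosome-bound scaffold protein, reads GC in its place. Of the +4 donors, 17 could be read and 16 of them held GT (94.1%). Among annotated donors that could be read the same way, 14174 of 40246 held GT at intron bases 5 and 6 (35.2%). A GT at a +4 donor puts GT at intron bases 5 and 6 of the annotated donor by position. The 2 percents therefore do not measure enrichment. Letters were readable only where some annotated transcript has an exon, so these are not a random draw of donors.

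Acceptors moved by 3 bases are shown next, since they are the sites at which the frame is kept. Capitals mark the last 2 intron bases at each acceptor. The first 3 were moved into the intron and added 3 bases, so the unannotated AG comes first. In Mettl9 the unannotated AG comes second and removes 3 bases.
Ewsr1, chr11:5079510-5079533, minus strand: tatccccccAGcAGcgctggagag
Ap2a2, chr7:141611322-141611345, plus strand: gtcctgcccAGaAGaccctgcggt
Mybph, chr1:134200934-134200957, plus strand: atctcttctAGcAGcttggtcaca
Mettl9, chr7:121076119-121076142, plus strand: atttgttctAGtAGgtggcaagtg
Tcea1, chr1:4889457-4889469, plus strand: tAGttccagcagc
Tra2b, chr16:22247251-22247263, minus strand: aAGacggtcacct
The windows of Tcea1, a transcription elongation factor, and Tra2b, a splicing regulator, start at the first base of the annotated exon, because the intron before it could not be read. All 18 acceptors that removed 3 bases held AG (NAG at the start of the annotated exon), as did all 3 readable ones that added 3 bases. Of all readable unannotated acceptors, 81 of 86 (94.2%) held AG. Over all annotated acceptors with readable exon starts, 13610 of 244765 (5.56%) were followed by an exon starting NAG. An AG at an acceptor that removed 3 bases makes the annotated exon start NAG by position, so this percent does not measure enrichment.

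The 287 structures used 321 distinct unannotated sites, 203 donors and 118 acceptors. Unannotated donors alone were present in 168 structures, unannotated acceptors alone in 84 and both in 35. One unannotated site was found in 251 structures, 2 in 35 and 3 in 1. The structures had a median of 7 exons (range 2 to 32). In all 287, each intron without such a site was an annotated intron. Of the 195 structures whose single unannotated site was a shift of 100 bases or less, 186 (95.4%) became an annotated intron chain once the annotated site was put back. These structures therefore differed from a known transcript at a single site.

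Each site was placed in 1 of 4 kinds. A shift was a site within 100 bases of an annotated site of an intron that shares its other end, and 195 sites (124 donors and 71 acceptors) were of this kind. Exons overlapping no annotated exon gave 27 sites, introns with both ends unannotated that lie within an annotated exon gave 23, and 76 sites were of none of these kinds. Of the 76, 44 lay over 100 bases from the annotated site of an intron that shares the other end, and for 32 no annotated intron shares it. Within 100 bases of some annotated site of the same type in the gene lay 60 of the 76. At the exons concerned, 61 unannotated donors ended a first exon and 28 unannotated acceptors opened a last exon. The letters of 187 sites could be read and 177 of them (94.7%, Wilson 95% interval 90.4 to 97.1%) held GT or AG. The rest were 5 donors with GC and 5 acceptors with AT. In the 3156 other NNC structures with reads in both libraries, 1985 of 2058 readable sites (96.5%, 95.6 to 97.2%) held GT or AG. Here and below, intervals cover counting error only.

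Shifts were small. Of 195, 155 (79.5%) moved the site by 6 bases or less. Donors mostly moved into the intron and lengthened the exon, in 88 of 124, whereas acceptors mostly moved into the exon and shortened it, with 18 of 71 adding bases. Among donors, 57 added 4 bases, 17 added 2, 9 removed 2 and 9 removed 3. Among acceptors, 18 removed 3 bases, 16 removed 2, 8 added 3 and 6 removed 4. No site of either type had moved by 1 base.

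**Figure D1:**
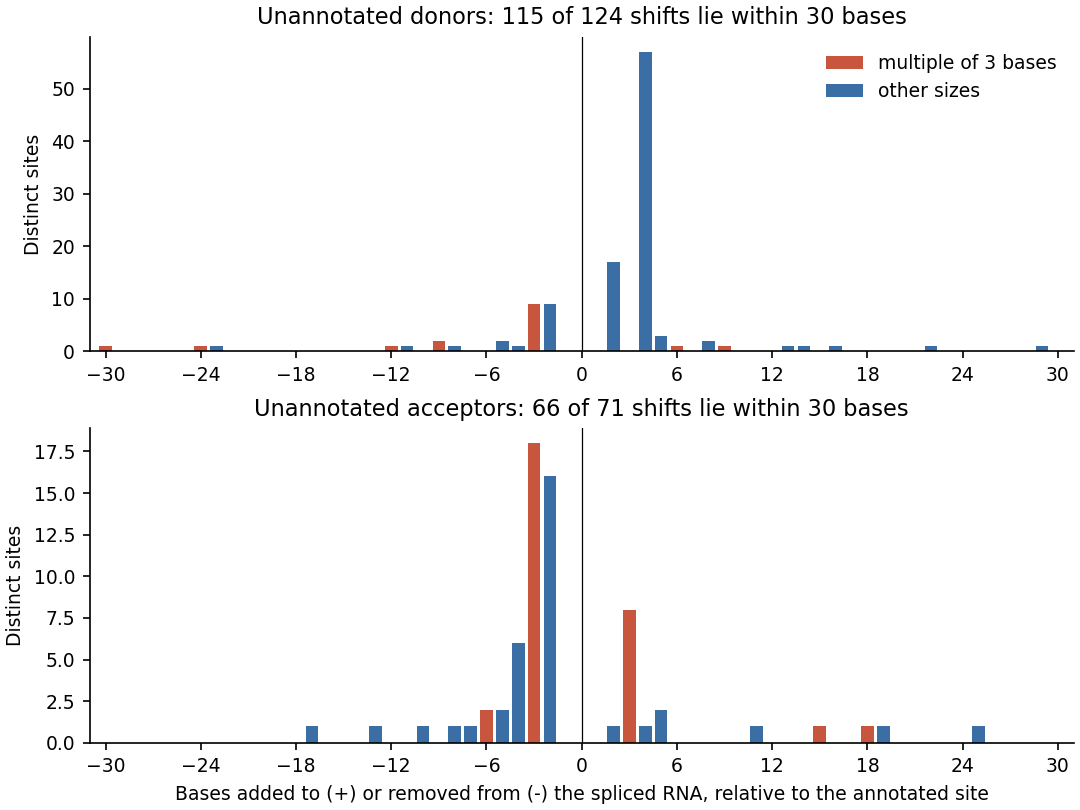
Distinct unannotated donors (top) and acceptors (bottom) of the supported structures by shift, in bases added to (positive) or removed from (negative) the spliced RNA, with multiples of 3 in red; shifts beyond 30 bases are not drawn. The tallest donor bar is at 4 bases added (57 sites) and the tallest acceptor bar at 3 bases removed (18 sites).

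Of the 9 donors at -3, the examples shown here held the same kind of repeated letters. In the windows of H2afz, which encodes the histone variant H2A.Z, and Ldha, lactate dehydrogenase A, the unannotated GT is the first of the capital pairs and the annotated one the second.
H2afz, chr3:137866129-137866152, plus strand: ttgctggtgGTgGTatgtcatccc
Ldha, chr7:46851047-46851070, plus strand: gcgactccaGTgGTaagtctttaa
Acceptors that removed 2 bases had an exon starting AG in all 16 cases, which follows by position from an AG at the unannotated site. Of annotated acceptors with readable exon starts, 13450 of 244765 (5.50%) had such an exon. In Rps7, a ribosomal protein gene, both AG pairs lie side by side.
Rps7, chr12:28633821-28633843, minus strand: tcactttaaAGAGgaggattctg

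Multiples of 3 made up 51 of the 195 shifts (26.2%, interval 20.5 to 32.7%). The other NNC structures with reads in both libraries gave 568 of 2183 (26.0%, 24.2 to 27.9%), and those with reads in 1 library 4761 of 17812 (26.7%). Within the supported structures the share was higher among acceptors than among donors. Acceptors gave 32 of 71 (45.1%, 34.0 to 56.6%) and donors 19 of 124 (15.3%, 10.03 to 22.7%). In the other structures read in both libraries, acceptors gave 331 of 872 (38.0%, 34.8 to 41.2%) and donors 237 of 1311 (18.1%, 16.1 to 20.3%). The 4-base donor shift made up 46.0% of donor shifts in the supported structures (37.4 to 54.7%), and 686 of 1311 (52.3%, 49.6 to 55.0%) in the others read in both libraries. The intervals of the supported structures overlap those of the others in each of these measures. No test was made, since both lists also differ in genes and reads.

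By position in the gene, 164 shifted sites lay between coding exons, 24 in a 5′ UTR, 2 in a 3′ UTR and 5 in non-coding transcripts. Of those between coding exons, 44 (26.8%, 20.6 to 34.1%) were multiples of 3, so 120 changed the frame of the annotated coding sequence as written in the structure. In the 5′ UTR, 6 of 24 were multiples of 3.

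How often a shifted site was used was taken at the junction, as reads of all models through it over those reads plus the reads through annotated introns that share its other end. Over the 195 shifts the median usage was 3.22%, with 49 sites at 10% or more and 33 under 1%. The 4-base donors were seldom used, at a median of 1.81% (0.132 to 59.2%), in introns whose annotated sites had a median of 723 reads. Their exceptions, named after their values were seen, were Ncam1, a cell adhesion molecule (59.2%), Lars, a leucyl-tRNA synthetase (29.6%), Gemin6, of the SMN complex (21.9%), and Rbm7, of the nuclear exosome targeting complex (11.5%). The acceptors that added 3 bases stood at a median of 37.1%, with 7 of 8 at 10% or more and a median of 29.2 annotated reads. Acceptors that removed 3 bases stood at 5.80%, those that removed 2 at 1.68%, and donors that added 2 at 2.54%. A site with few annotated reads needs a high usage to reach 5 reads in each library, so these medians move with the depth of the gene.

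Taken over both site types, multiples of 3 had a median usage of 6.58% and other sizes 2.78%, with annotated reads at medians of 132.5 and 393. Between coding exons, 15 of the 30 sites used at 10% or more were multiples of 3 (50%, 33.2 to 66.8%). At 1 to 10% usage it was 23 of 105 (21.9%, 15.1 to 30.7%) and under 1% it was 6 of 29 (20.7%, 9.85 to 38.4%). These counts pool both site types. Over all regions, multiples of 3 were 5 of the 24 donors and 16 of the 25 acceptors used at 10% or more. Among shifts at any usage they were 19 of 124 donors and 32 of 71 acceptors. Sites in a 5′ UTR had a median usage of 15.2%, with 41.8 annotated reads at the median, against 2.89% and 410 reads between coding exons.

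**Figure D2:**
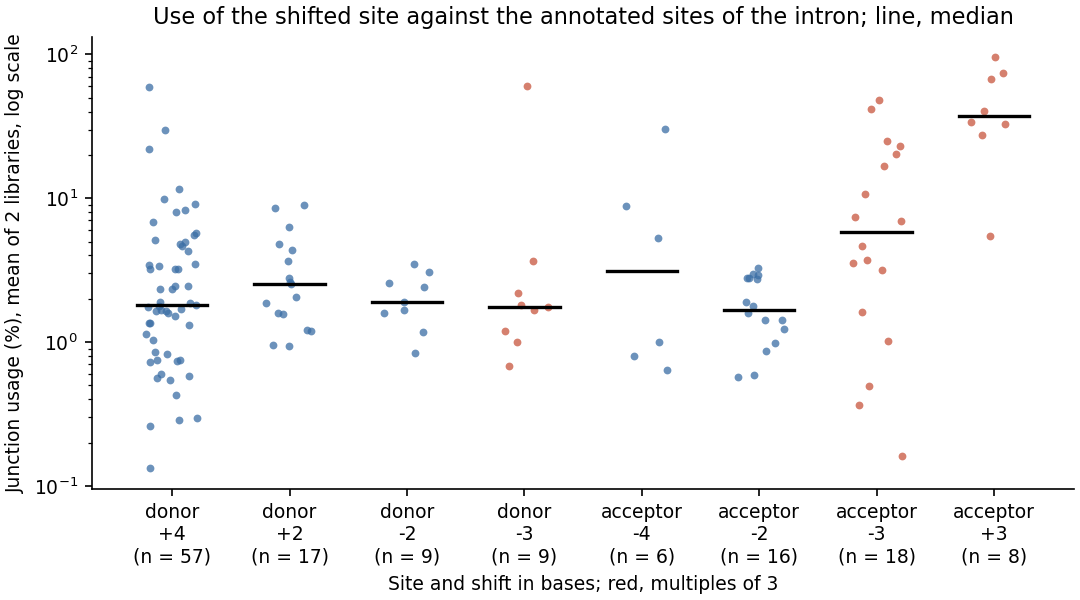
Junction usage in percent (mean of both libraries, log scale) of shifted sites by site type and shift in bases; points are distinct sites, lines medians, and red marks multiples of 3. The 8 acceptors at +3 have a median of 37.1% and the 57 donors at +4 a median of 1.81%.

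The best read structure lay in a gene of moderate depth. Cct6a, a subunit of the cytosolic chaperonin CCT (ENSMUSG00000029447.11; chromosome 5, 129786998 to 129846371, plus strand, annotated as processed_transcript), held the first. It had 198 reads in replicate 1 and 225 in replicate 2, which is 60.2% (interval 54.8 to 65.3%) and 62.7% (57.6 to 67.5%) of the gene. Its 10th intron, of 50376 bases, has both ends unannotated. The donor lies 61 bases beyond the nearest annotated donor of the gene, inside the annotated exon of the small nucleolar RNA gene Snora15, and the acceptor 33 bases before the nearest annotated acceptor. The second Cct6a structure, with 74 and 79 reads, ended the same exon 100 bases before an annotated donor at which neither library had a read with this acceptor. Known models held 6 and 3 reads of the gene, and NNC models 288 and 326 of 329 and 359. The unannotated donors, in capitals, are shown because they carry most reads of this gene.
Cct6a donor of the first structure, chr5:129794552-129794572, plus strand: ctgaatactGTgttctttagt
Cct6a donor of the second structure, chr5:129794596-129794616, plus strand: catgcaaaaGTaaagtcttcc

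Mrpl33, a protein of the large mitochondrial ribosomal subunit (chromosome 5, 31596935 to 31664384), gave the highest share among genes with at least 20 reads in each library. Its structure had 140 reads and 76.1% of the gene in replicate 1, and 108 reads and 88.5% in replicate 2. It ended the first exon 8 bases downstream of the annotated donor. Reads through the unannotated donor numbered 141 and 109, against 28 and 7 through annotated introns with the same acceptor. In the window below, the annotated GT comes first and the one read here second.
Mrpl33, chr5:31614014-31614042, plus strand: ctgtctcttGTaagtcgGTctgaggcggc
AI506816, a processed transcript on the minus strand of chromosome 5 (23698296 to 23712667), had 78 and 90 reads of the structure, 51.7% and 54.2% of the gene. Its last exon began 11 bases before the annotated acceptor. The unannotated acceptor was used by 114 and 137 reads, against 1 read in each library for the annotated one.

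Unannotated donors also ended the first exons of Chmp1a and Uqcrh. Chmp1a, of the ESCRT-III membrane remodelling machinery (chromosome 8, 123204264 to 123212763), had 63 and 81 reads of the structure, 68.5% and 68.1% of the gene. The donor, 25 bases from the nearest annotated donor, carried 64 and 81 reads against 8 and 16 through annotated introns. Uqcrh, the hinge protein of respiratory complex III, had 65 and 48 reads, or 27.0% and 30.2% of the gene, with a donor 13 bases from the nearest annotated one. Both stood well above the median share of the 287 structures, 4.16%, while Uqcrh kept 164 and 102 reads on known models.

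Bsg, the membrane glycoprotein basigin (chromosome 10, 79704491 to 79711969), had the second most-read structure, with 167 and 170 reads and 18.5% and 20.6% of the gene. Its last exon began 210 bases beyond the annotated acceptor of the last intron, at a usage of 21.6% and 23.4%. Another annotated acceptor of the gene lies nearer, 28 bases away. H2-D1, a heavy chain of MHC class I, had 57 and 55 reads of its structure, 20.4% and 19.0% of the gene, with a donor 166 bases upstream of the annotated donor of that intron. The nearest annotated donor of the gene is 45 bases away. The class I genes are a family of near-identical copies, so reads of H2-D1 may be split between genes, which was not tested. In both genes the known models held most reads, 637 and 588 in Bsg and 169 and 170 in H2-D1.

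In the most abundant genes the structures took small shares. Spp1, which encodes osteopontin, had an acceptor with 2 bases added, with 150 and 129 reads and 3.32% and 2.91% of the gene. Pkm, pyruvate kinase, had a 4-base donor shift with 92 and 133 reads, 3.03% and 3.97%. Eef1a1, the translation elongation factor, had one with 74 and 99 reads, 2.20% and 2.86%. These introns were read mostly as annotated, with 2642 and 3056 annotated reads at the Pkm junction and 2592 and 2973 at that of Eef1a1. Fth1, the ferritin heavy chain shown above, had 53 and 44 reads, 1.28% and 1.24% of the gene. Ptma, prothymosin alpha, had a structure with the 4-base donor alone (68 and 62 reads, 4.29% and 4.36%) and another that joined the same donor to an unannotated acceptor 5 bases into the next exon (76 and 66 reads, 4.79% and 4.64%).

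The 3-base shifts by rule included acceptors with high usage. Ewsr1, an RNA-binding protein of the FET family (chromosome 11, 5069689 to 5099266), had 63 and 54 reads and 26.1% and 21.5% of the gene. Its added 3 bases were used at 36.6% and 31%. In Fam114a2, where the acceptor lies in the 5′ UTR, usage was 76.9% and 71.4%, with 38 and 53 reads of the structure. In Arfgap3, a GTPase-activating protein for ARF at the Golgi, it was 62.5% and 72.4%, with 36 and 55 reads and 43.4% and 52.4% of the gene. Lamp1, a lysosomal membrane glycoprotein, gave 29 and 51 reads with usage of 4.33% and 6.63%. H2afz had 21 and 23 reads at a donor with 3 bases removed, used at 2.08% and 2.28%. Mettl9, a histidine methyltransferase, had 19 and 15 reads, and its acceptor was used at 27.3% and 19.1%. The Ewsr1, Fam114a2 and Arfgap3 sites were above the 10% line in both libraries, and both Lamp1 and H2afz below it.

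**Figure D3:**
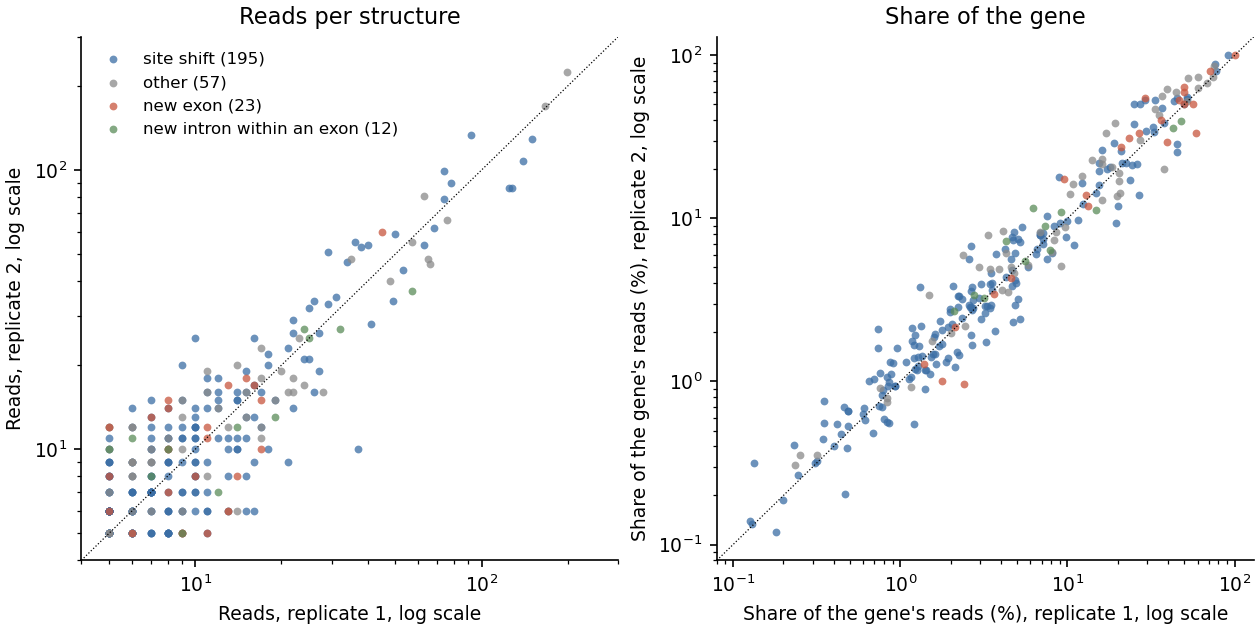
Each supported structure by its reads (left) and its share of the gene's reads in percent (right) in replicate 1 and replicate 2, log scales, coloured by kind of unannotated site; the dotted line marks equal values. Structures range from 5 reads to 198 in replicate 1 and 225 in replicate 2, and the shares of 18 of the 287 differ more than 2-fold between libraries.

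Outside the named structures, examples chosen after their values were seen show the range of sizes. Api5, an inhibitor of apoptosis, gained 5 bases at the acceptor of its last exon, with 29 and 33 reads and usage of 43.1% and 48.0%. Tfg, a protein of vesicle export from the endoplasmic reticulum, lost 12 bases at a donor, with 18 and 20 reads and usage of 16.5% and 17.7%. The 12 bases of Tfg keep the frame and the 5 bases of Api5 do not. In the 5′ UTR, Blvra, biliverdin reductase A, lost 5 bases at the donor of its first exon, with 27 and 26 reads, 32.9% and 33.8% of the gene. Zmat5, a zinc finger protein of the minor spliceosome, lost 9 bases there, with 15 and 11 reads and usage of 53.1% and 50%. Spsb2, a SOCS box protein, gained 16, with 11 and 16 reads and usage of 38.2% and 63.0%. Nudt5, a nucleotide hydrolase, had 35 and 48 reads through a donor that shares its acceptor with no annotated intron read in either library, 44.3% and 60% of the gene.

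The same small shifts recurred at different usage in deeply read genes. Des, the muscle intermediate filament desmin, had the 4-base donor shift in a structure with 7 and 7 reads. Further models used this donor with 0 and 2 reads, against 801 and 1131 annotated reads at the junction. Rpl8, a ribosomal protein, had donors on both sides of the annotated one, in structures with 4 bases added (18 and 22 reads) and 4 removed (12 and 11 reads). At the junction with 4 bases added, all models together had 46 and 41 reads, against 1444 and 1180 annotated reads. Vcp, the AAA ATPase that extracts ubiquitinated proteins, had the 4-base shift with 31 and 35 reads at a usage of 9.81% and 9.95%, and Rack1 with 34 and 47 reads at 7.56% and 10.8%. Usage of the same 4-base shift was thus under 1% in Des and about 10% in Vcp.

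Some genes held several structures. Of the 254 genes, 229 held 1 structure, 19 held 2, 4 held 3 and 2 held 4. Lgals1, which encodes galectin-1, held 4 structures with 368 and 252 reads together, only 4.62% and 4.32% of the gene. They differed at all 3 introns. The first intron had a donor with 2 bases removed (125 and 86 reads) and a donor with 4 bases added (49 and 34). The last intron had a donor with 4 bases added (128 and 86), and the second a donor 138 bases into the intron (66 and 46). Spp1 also held 4, and its other 3 had 22 and 29, 21 and 9, and 6 and 14 reads. Vim, the intermediate filament vimentin, held 3, each with 4 bases added at a donor, and these had 50 and 59, 40 and 54, and 22 and 26 reads. The H3f3b gene of histone H3.3 held 3, a +4 donor (10 and 10 reads), a -3 acceptor (9 and 9) and an acceptor with 5 bases removed (5 and 5). Lamp1 held acceptors on both sides of the annotated one, with 3 bases added (29 and 51 reads) and 3 removed (10 and 12), and another structure with 2 bases removed at another acceptor (7 and 11). Ptma held 3, all through the donor with 4 bases added.

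Exons that overlap no annotated exon were found in 23 structures. They were 16 first exons of 53 to 420 bases, 4 internal exons of 45 to 118 bases and 3 last exons of 279 to 375 bases. Their letters could not be read except at 1 site, since no annotated exon covers them. The structures with new exons held a median of 30% of the gene, against 9.23% for the 57 with other sites, 7.64% for the 12 with an intron inside an exon and 2.78% for the 195 with shifts. New exons were the most-read complete model of the gene in both libraries in 13 of 23 cases, and shifts in 17 of 195 cases. A complete model is here one that is annotated, NNC, or a new combination of annotated sites, as opposed to an incomplete match of a known transcript.

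**Figure D4:**
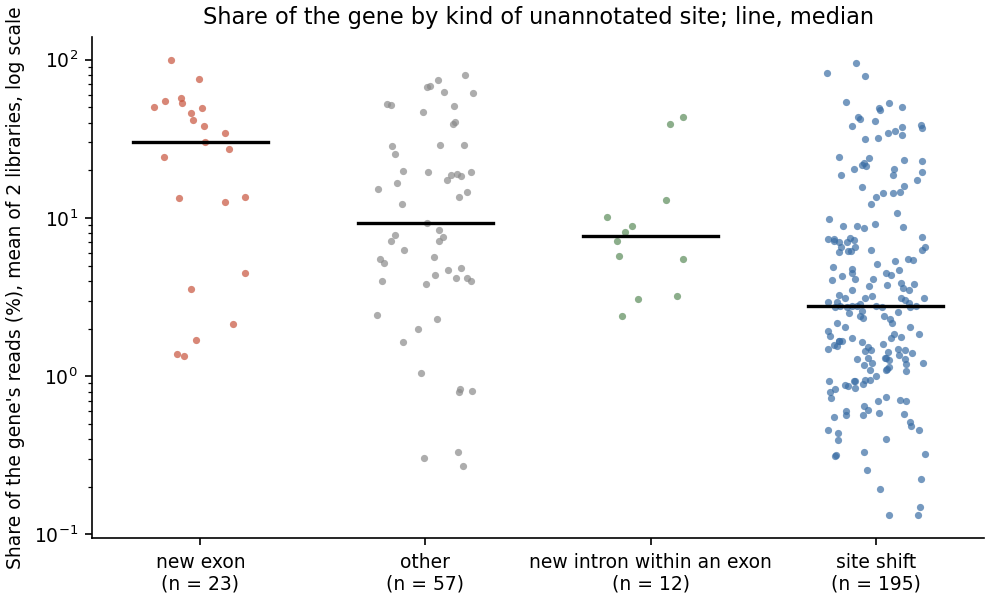
Share of the gene's reads in percent (mean of both libraries, log scale) held by each supported structure, by kind of unannotated site; lines are medians. The medians are 30% for new exons, 9.23% for other sites, 7.64% for introns within an exon and 2.78% for shifts. The kinds are not compared at equal depth of the gene.

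All 4 new internal exons fell in genes whose annotated junction carried most reads. Bin1, a membrane-curving protein of muscle transverse tubules, held a 45-base exon between coding exons, with 17 and 15 reads of the structure, 4.62% and 4.29% of the gene. Its junctions were used at 13.2% and 9.84%. Tspo, an outer mitochondrial membrane protein, held a 118-base exon with 10 and 8 reads, at a usage of 2.15% and 1.79%. Ogn, the matrix proteoglycan osteoglycin, had a 93-base exon in the 5′ UTR with 11 and 5 reads. Angptl2, a secreted glycoprotein, had one of 59 bases in the 5′ UTR with 5 and 6 reads. The exons of Bin1 and Ogn are multiples of 3 in length, and those of Tspo and Angptl2 are not.

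The best read new first exon was in Eps8, an actin-capping and signalling protein (chromosome 6, 137477245 to 137654876). The exon of 53 bases had 45 and 60 reads in its structure, 46.4% and 53.1% of the gene. Its donor was used by 47 and 64 reads, against 17 and 30 through annotated introns with the same acceptor. Ahnak2, a very large scaffold protein, had a 131-base first exon with 15 and 18 reads, 50% and 60% of the gene. Frrs1, a ferric-chelate reductase, had one of 188 bases with 13 and 17 reads, 56.5% and 50%, and no read used an annotated intron with that acceptor. The other first exons, named after their values were seen, were in Gm42674, Hnrnpf, Steap3, Fam19a5 (2 exons), Rnf216, Tnnt2, Gm37800, Zyx, Gm2004, Tln2, Ttyh2 and Zfp869. Of these, Tnnt2, a troponin T also made in immature skeletal muscle, had 21 and 12 reads at the new donor and none at annotated introns with the same acceptor. Zyx, a focal adhesion protein, had 13 and 9 reads against 410 and 493. The new exon in Gm42674 also lies within the span of S100a4, and its donor had 12 and 12 reads. Annotated introns with the same acceptor had 633 and 501 reads, while only 38 and 22 reads were assigned to Gm42674. New last exons were in Arl14ep, Trim37 and 3110040N11Rik, whose new acceptors had 16 and 17, 13 and 19, and 12 and 11 reads.

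The 10 structures with the highest share by rule also held Lmf1, Rwdd4a, Uckl1 and Dnajc17, all with few reads. Lmf1, a lipase maturation factor, had 23 of 31 and 25 of 34 gene reads, 74.2% and 73.5%, and its donor lies 4 bases beyond an annotated donor of the gene. Rwdd4a had 11 of 21 and 19 of 26 reads, 52.4% and 73.1%, and its acceptor 3 bases before an annotated one. Uckl1, a uridine kinase, had 16 of 31 and 25 of 45 reads, with 13 bases added at a donor. Dnajc17, a J-domain protein, had 17 of 33 and 11 of 21, with both ends of the intron unannotated. At such depth an interval on 1 library is wide, from 32.4 to 71.7% for Rwdd4a in replicate 1.

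In 12 structures an intron with both ends unannotated lay within an annotated exon. The one with most reads was in Sfr1, a DNA repair gene (chromosome 19), where an intron of 49 bases was used by 342 and 291 reads of all models, of which the highest structure held 57 and 37. Both ends share the letters ctcagacca and gagaatcca. In Cxcl5, a chemokine, an intron of 51 bases with 27 and 18 reads has 22 identical bases at its ends in a stretch of repeated letters. The ends are shown as donor then acceptor, with the intron's terminal pairs in capitals.
Sfr1 donor, chr19:47732744-47732764, plus strand: ctcagaccaGTgagaatccac
Sfr1 acceptor, chr19:47732791-47732811, plus strand: cctcagaccAGggagaatcca
Cxcl5 donor, chr5:90760831-90760851, plus strand: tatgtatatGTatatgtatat
Cxcl5 acceptor, chr5:90760880-90760900, plus strand: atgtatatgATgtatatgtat
In 9 further structures of this kind the identical stretch at the ends was 0 to 4 bases. Among them were those of Slc25a3, Rpl7, Gas5 (2 structures), Cdca8, Mlf2, Enkd1 and Leprot. In Slc25a3, Rpl7 and Mlf2 the donor lay 4 bases from an annotated donor of the gene and the acceptor 3 to 5 bases from an annotated acceptor. Gas5, a host transcript of small nucleolar RNAs, had 95 and 80 reads through its 633-base intron.

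Acceptors with AT were also seen in repeated letters in Npm1, the nucleolar protein nucleophosmin. The 2 acceptors removed 10 and 13 bases. They had 18 and 22, and 20 and 19 reads, against 11 and 11 at the annotated acceptor of that intron. Npm1 has processed copies elsewhere in the genome, so reads may be split between loci, which was not tested. The annotated AG and the unannotated AT are in capitals.
Npm1, 10 bases removed, chr11:33157030-33157059, minus strand: ttcatttatAGtgatgatgATgatgatttt
Npm1, 13 bases removed, chr11:33157030-33157059, minus strand: ttcatttatAGtgatgatgatgATgatttt

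The share of genes with a supported structure was higher at greater depth, although 124 of the 254 had a mean under 200 reads. Among 8314 genes with at least 5 reads in each library, 254 held one (3.06%, 2.71 to 3.45%). The share was 0.841% (0.629 to 1.12%) of genes with a mean of 5 to 50 reads, 3.51% at 50 to 200, 14.5% at 200 to 1000 and 45.8% (35.5 to 56.5%) of the 83 genes with 1000 or more. A gene at low depth cannot reach 5 reads in a minor structure, so a missing structure there was not detectable. By type, 281 structures lay in 250 protein-coding genes, 5 in processed transcripts and 1 in a lincRNA.

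**Figure D5:**
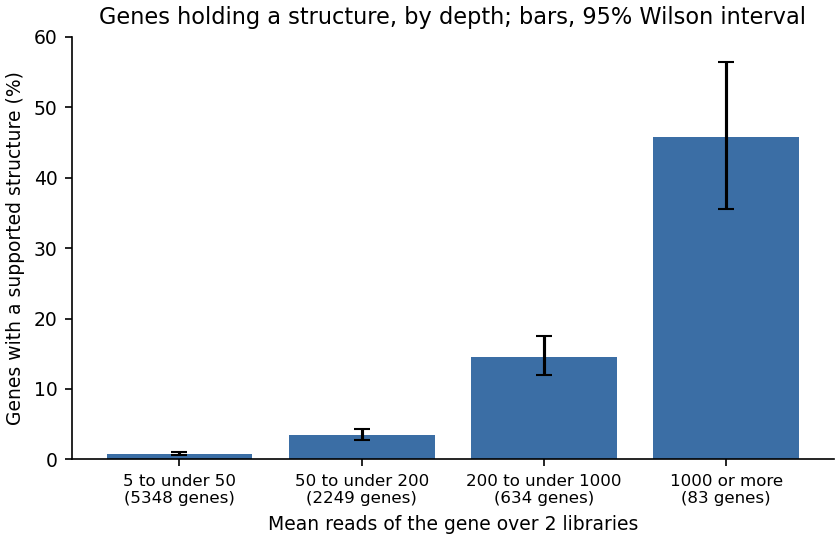
Percent of genes that hold a supported structure, by the mean reads of the gene over both libraries; bars are percents, error bars Wilson 95% intervals, and gene numbers stand under each bar. The percent is 0.841% in the lowest class and 45.8% in the highest.

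By function, the groups are given with the reads of their median gene. Of 83 ribosomal protein genes, a group added after values were seen, 23 held one, and their median gene had 569.5 reads. Glycolysis and mitochondrial metabolism held 13 of 63 genes (Pkm, Eno1 and Tpi1 among them), with a median gene of 293.5 reads, and protein folding and degradation 12 of 63 (Hspd1 and Calr among them), with 311. Splicing and RNA binding held 3 of 73 (Ewsr1, Hnrnpf and Tra2b), with 91 reads. Cytoskeletal and contractile genes held 10 of 69, including Des, Tpm3 and Tnnt2, the other translation genes 8 of 45, cell cycle and chromatin 9 of 59, membrane traffic 7 of 62 and extracellular matrix 5 of 43. The median gene of all 8314 had 31 reads, so the percentages of these groups are not comparable with it at equal depth.

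The higher share of the gene over the lower one of the 2 libraries had a median of 1.24 and reached 2.91, and it was above 2 for 18 of the 287 structures. The 95% intervals of the share in replicate 1 and replicate 2, which are wide at few reads, overlapped for all 287. Both measures cover only structures chosen for at least 5 reads in each library, and 29276 NNC structures had reads in 1 library only. They therefore do not measure how well the libraries agree on NNC structures. A share under 1% was held by 48, 1 to 10% by 149, 10 to 50% by 69 and 50% or more by 21. In both libraries 85 had at least 10% of the gene and 45 were its most-read complete model. Outside the 287 structures, 180 of the 321 unannotated sites were used by further models in both libraries and 58 by none in either, with a median of 2 such reads in each library. Just inside the limit stood 66 structures with a lower count of 5 and a median share of 2.75%, and just outside it 109 with a lower count of 4 and 2.53%.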

How the data were processed

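Per the file headers, the authors deposited a table per library with the raw, unnormalised count of reads for each model, together with mm10 annotations of these models made against GENCODE M21. Unannotated models carry TALON as their source. The aligner was not given in the sources used here. Counts of NNC models with the same intron chain were summed within a library, though each chain had at most 1 model. Sites, introns and exons were compared with GENCODE M21. Site letters were read from GENCODE M21 transcripts, since no genome was used, so only sites inside an annotated exon were readable. Junction reads were summed over all models. Shares carry Wilson 95% intervals, which cover counting error only. At these depths 5 reads make 6.31 and 6.80 CPM, and a structure with no read could have had 3 reads. With 1 group, no test was made. The 2 libraries are labelled biological replicates. No other normalisation was applied. Values were computed with Python 3.11.15 and pandas 2.3.3.

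Members were named by rule: the 20 highest lower counts of the 2 libraries, the 10 highest lower shares in genes with at least 20 reads in each library, the 8 highest with new internal exons (there were 4), the 6 highest with shifts of 3 bases, and the 6 genes with most structures. The structures, the 8 gene lists and the rule were chosen with earlier results of these data known. Alternatives changed the read minimum, the libraries required, the definition of an unannotated site, the size limit of a shift and the exons counted. Some members are not reported here.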

Additional observations from a re-analysis of the deposited data

How the results depend on the processing

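With a minimum of 3 reads in each library, 600 structures in 498 genes passed, with 260 unannotated acceptors, 416 unannotated donors, 13 new internal exons and a median share of the gene of 2.78%. With a minimum of 10, 113 structures in 97 genes passed, with 46 acceptors, 81 donors, 1 new internal exon and a median share of 6.27%. When 5 reads in a single library sufficed (leaving out each replicate in turn), the ranges were 538 to 573 structures, 449 to 467 genes, 239 to 245 acceptors, 369 to 413 donors and 9 to 13 new internal exons, with a median share of 3.48 to 3.50%. Over complete models the median share was 4.63%. New exons of any position numbered 23. The percent of shifts that are multiples of 3 stayed between 23.6 and 27.6% over the 8 alternatives that could change it, and the percent of readable sites with GT or AG, a measure chosen after seeing the data, between 93.2 and 95.3%. Taking the single model with most reads per chain could change nothing, since each chain had 1 model in a library. The planned percent of introns with a GT-AG pair was not run, since it needs letters of unannotated intron ends. No paired analysis was possible because the series holds 1 group. The limits are the depth, the 2 libraries, the selection by read counts and the readable share of sites (187 of 321).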
